A study of Mus musculus with 16 samples.

Results

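The expression of 42 genes of the cell division cycle was followed through single-cell RNA sequencing of mouse neuroblastoma grafts, a study that asked how the receptor CD200R bears on chemokine production by myeloid cells. The genes were given as a list by their known roles, no measured value chose them, and all 42 are among the 19715 genes of the table. The list was read as 17 S phase genes, 23 mitosis genes and 2 genes (Tubb5 and Cdkn2d) kept apart because cells also make them outside division. Male C57BL/6 mice aged 8 weeks, either wild type (WT) or CD200R-/- (KO), had received NB9464D cells, a mouse neuroblastoma line, under the skin. The growth protocol in the labels writes CD200-/- where the sample characteristics write CD200R-/-. Tumors were taken on day 28 and digested with 1 mg/mL collagenase, and either CD45+ sorted leukocytes or all tumor cells entered 10x 3' capture, giving 4 groups, a sorted and a tumor library for each genotype. All mice carried the same graft, and no untreated or graft-free group was analysed here. The labels count 16 samples, 4 a group, but each cell carries only its group's name, so each group was 1 library. No test was possible. Intervals in the text are at 95% and cover counting error only, and the genotype cannot be told apart from differences between animals, grafts and preparations.

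Before a cell copies its DNA it licenses origins by loading the Mcm2-7 helicase with Cdc6 and Cdt1. Gins2 belongs to the complex that activates the helicase, Pcna is the sliding clamp of the polymerases, and Rrm1, Rrm2, Tyms and Dut supply or police nucleotides. Mitosis is driven by Cdk1 bound to cyclins A and B, with the kinases Plk1, Aurka and Aurkb, the spindle motors and kinetochore proteins, and Cdc20 and Ube2c, which direct the anaphase-promoting complex to its substrates. Many S phase genes are switched by E2F factors. Many mitosis genes are repressed in resting cells and induced late in the cycle through a CHR element, often near CCAAT boxes that NF-Y binds. In tumors these programmes mark dividing malignant cells, but also expanding lymphocytes and proliferating tissue macrophages.

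Promoters of 6 members are shown because the members are read below as S phase and mitosis groups, and the sequences show in what letters those groups differ. Each window runs from 250 bases before to 50 bases after the transcript start (RefSeq, GRCm38.p6, 5′ to 3′ on the gene's strand), and capitals mark matches on either strand to 1 of 3 motifs. The CHR was searched as TTTGAA and also in the form TTCGAA, and the CCAAT box as its name spells it. E2F was searched as TTCCCGC and in the variant forms TTGGCGC, then the form TTCGCGC, and last the form TTGCCGC.
Mcm5 (chr8:75109259-75109558, plus strand): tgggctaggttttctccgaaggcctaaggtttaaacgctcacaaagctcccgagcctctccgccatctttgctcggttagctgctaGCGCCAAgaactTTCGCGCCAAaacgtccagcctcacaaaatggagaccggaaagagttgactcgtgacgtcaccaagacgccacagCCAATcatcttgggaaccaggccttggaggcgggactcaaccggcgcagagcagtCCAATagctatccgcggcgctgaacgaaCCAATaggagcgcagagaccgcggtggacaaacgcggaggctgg
Pcna (chr2:132253131-132253430, minus strand): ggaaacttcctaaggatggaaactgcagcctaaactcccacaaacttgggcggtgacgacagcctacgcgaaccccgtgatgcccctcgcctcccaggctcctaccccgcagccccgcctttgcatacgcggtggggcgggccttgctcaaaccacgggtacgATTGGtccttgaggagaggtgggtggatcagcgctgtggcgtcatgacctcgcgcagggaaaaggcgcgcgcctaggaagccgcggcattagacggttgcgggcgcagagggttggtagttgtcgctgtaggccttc
Ccnb1 (chr13:100786437-100786736, minus strand): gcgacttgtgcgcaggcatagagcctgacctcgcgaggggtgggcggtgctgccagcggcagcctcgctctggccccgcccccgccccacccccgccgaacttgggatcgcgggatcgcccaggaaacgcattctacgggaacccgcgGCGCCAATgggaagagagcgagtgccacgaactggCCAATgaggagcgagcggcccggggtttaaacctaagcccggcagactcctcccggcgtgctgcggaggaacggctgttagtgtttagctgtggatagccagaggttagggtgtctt
Cdc20 (chr4:118437294-118437593, minus strand): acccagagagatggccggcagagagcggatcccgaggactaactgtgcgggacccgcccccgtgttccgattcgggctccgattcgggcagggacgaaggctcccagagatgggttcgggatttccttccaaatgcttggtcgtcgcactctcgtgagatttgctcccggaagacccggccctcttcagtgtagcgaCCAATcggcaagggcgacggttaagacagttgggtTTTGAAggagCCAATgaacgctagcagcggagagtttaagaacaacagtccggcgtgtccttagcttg
Plk1 (chr7:122159185-122159484, plus strand): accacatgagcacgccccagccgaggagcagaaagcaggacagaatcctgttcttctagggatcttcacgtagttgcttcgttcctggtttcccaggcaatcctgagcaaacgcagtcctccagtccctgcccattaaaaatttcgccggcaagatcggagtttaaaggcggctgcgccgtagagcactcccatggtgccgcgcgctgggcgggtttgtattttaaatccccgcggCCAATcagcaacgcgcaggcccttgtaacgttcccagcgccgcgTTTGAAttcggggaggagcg
Top2a (chr11:99024140-99024439, minus strand): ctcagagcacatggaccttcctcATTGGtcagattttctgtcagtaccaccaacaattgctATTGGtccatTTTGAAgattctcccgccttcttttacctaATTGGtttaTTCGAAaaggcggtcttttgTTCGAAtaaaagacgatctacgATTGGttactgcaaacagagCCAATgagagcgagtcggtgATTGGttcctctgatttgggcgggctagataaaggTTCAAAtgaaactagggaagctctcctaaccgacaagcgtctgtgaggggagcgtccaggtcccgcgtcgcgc

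The Cdc20 window holds a CHR match at -18 to -13, with CCAAT matches at -53 to -49 and -8 to -4, counting the start base as 0. Plk1 has CHR at 30 to 35 and CCAAT at -14 to -10. Top2a, the DNA-untangling topoisomerase of dividing cells, has 4 CHR and 6 CCAAT matches. Ccnb1, cyclin B1, has no CHR match in this window, 2 CCAAT matches and 1 E2F match at -102 to -96 that overlaps the CCAAT match at -99 to -95. Mcm5 has 3 E2F matches, of which those at -152 to -146 and -149 to -143 overlap, and Pcna has 1 CCAAT match. Of the 42 members, 37 had a window in the RefSeq table, and Ccna2, Gins2, Mcm4, Tpx2 and Aurkb did not. CHR letters were found in 15 of 20 mitosis windows (75%) and 2 of 15 S phase windows (13.3%), against 5254 of 27025 genes (19.4%). E2F letters were found in 9 S phase windows (60.0%) and 4 mitosis windows (20%), against 9.69% of all genes. CCAAT was found in 66.7% of S phase and 85.0% of mitosis windows, against 37.9%. CHR and CCAAT stood together in 70.0% of mitosis windows, 13.3% of S phase windows and 7.70% of all. A match describes letters and not a bound site.

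The libraries held 4305 to 5897 cells each, 20376 in all, with 113 cell barcodes found in more than 1 library of 20182 different barcodes. Depth differed. The WT sorted library had 62509573 unique molecular identifiers (UMIs, each 1 captured RNA molecule) and a median of 4665 per cell, and KO sorted had 29200338 and 3127. The WT and KO tumor libraries had 103277632 and 103877007 UMIs, with medians of 19850 and 16276. Mitochondrial RNA was a median of 4.19%, 6.36%, 6.11% and 8.05% of a cell's UMIs in the order used for values below unless stated, which takes the sorted pair and then the tumor pair with WT first in each. Ribosomal protein RNA was 19.7%, 17.1%, 30.9% and 26.5% of all UMIs. Levels are in CPM, the UMIs of a gene per 1000000 UMIs of the named cell type and library. Shares of cells were compared only after every cell had been thinned at random to 2000 UMIs, which left out 15.4%, 27.4%, 6.42% and 16.1% of cells as too shallow. A cell was called mitosis-positive or S-positive if at least 2 different members of that list had a UMI.

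The cells that the authors named NB_cells, for neuroblastoma, carried the highest levels of both lists among cell types with at least 50 cells in every library. Summed over 23 mitosis members they had 5663 CPM (5611 to 5715) in WT sorted, 5319 (5243 to 5395) in KO sorted, 4503 (4485 to 4522) in WT tumor and 4846 (4825 to 4867) in KO tumor. Birc5, survivin of the chromosomal passenger complex, was the largest contributor in both tumor libraries at 13.9% and 15% of the sum, and Top2a was the largest in KO sorted at 18.7%. S phase members summed to 1805 (1775 to 1834), 2988 (2931 to 3045), 1838 (1826 to 1849.9) and 2175 (2161 to 2189) CPM. At equal depth 187 of 193 WT sorted NB_cells were mitosis-positive (96.9%, 93.4 to 98.9), against 92.6% (87.4 to 96.1), 92.9% (91.5 to 94.0) and 92.0% (90.4 to 93.5) in the other libraries. S-positive NB_cells were 69.4%, 80.9%, 78.9% and 86.0%. The name held 36.6%, 42.1%, 70.7% and 57.1% of all mitosis-positive cells. The cells lay far above the limit of the call: those with exactly 1 mitosis member were 2.07% to 6.17%, and those with exactly 2 were 3.63% to 8.71%.

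The name NB_cells was checked against marker genes and was not borne out by them. Its leading genes by fold over all other cells were themselves cycle genes. Cenpf and Plk1 were among the top 10 in the sorted preparation, where 20 of 23 mitosis members were in the top 100, and Kif11 and Top2a were in the top 10 in the tumor preparation, where 15 of 23 were in the top 100. No marker of any lineage was in either top 10. The levels of NB_cells are therefore a description of what the name holds. Within the sorted libraries it held leukocytes. Of WT sorted NB_cells 47.7% had at least 3 macrophage markers, 19.7% at least 3 T or NK markers and 21.8% at least 3 graft markers (fibroblast and neuroblastoma genes). Of KO sorted NB_cells 13.6%, 53.1% and 5.56% did. In the tumor libraries 68.6% and 26.7% had 3 graft markers and 0% and 0.0779% had 3 T or NK markers. Ptprc, which encodes CD45, was at 241, 1006, 0.258 and 2.80 CPM in NB_cells. Hand2, a transcription factor of sympathetic neuroblasts, was at 68.8, 94.1, 154 and 245 CPM in NB_cells and at 167, 468, 181 and 333 CPM in cells named Fibroblasts, so it did not set the former above the latter. The collagen gene Col1a1 was at 578 and 402 CPM in tumor NB_cells and 723 and 631 CPM in tumor Fibroblasts.

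Mki67 and Top2a act on chromosomes. Mki67 encodes the Ki-67 protein that coats mitotic chromosomes (chromosome 7, 135689784 to 135716361, minus strand, GRCm38). In NB_cells Mki67 was at 399 CPM (385 to 413), 541 (517 to 566), 209 (205 to 214) and 296 (291 to 301). Both KO libraries were above the WT library of the same preparation. In Fibroblasts Mki67 was at 22.5, 9.06, 18.2 and 27.8 CPM, and in M1_macrophages at 48.5, 70.9, 79.3 and 62.4 CPM. B_cells, CD4_T_cells and CD8_T_cells of the sorted libraries had 0.935 to 3.37 CPM of Mki67 on 1 to 6 UMIs, near the 2.20 CPM of WT sorted Neutrophils. Top2a lies on chromosome 11, 98992943 to 99024189, minus strand. It was at 582 (566 to 599), 995 (962 to 1028), 536 (529 to 542) and 535 (528 to 542) CPM in NB_cells and had a UMI in 62.7%, 77.8%, 58.3% and 57.5% of thinned cells. Top2a was at 37.9, 20.8, 23.5 and 15.9 CPM in Fibroblasts, and there both KO libraries were below their WT counterparts.

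Ccnb1 and Cdc20 act late, cyclin B1 at entry into mitosis and Cdc20 at anaphase. Ccnb1 (chromosome 13, 100778650 to 100786570, minus strand) was at 184 (174 to 193), 108 (97.3 to 119), 105 (102 to 108) and 84.9 (82.1 to 87.7) CPM in NB_cells. Its level in Fibroblasts was 12.7, 5.33, 8.66 and 6.86 CPM. Cdc20 (chromosome 4, 118432901 to 118437352, minus strand) was at 175 (166 to 184), 90.2 (80.7 to 101), 122 (119 to 125) and 119 (116 to 123) CPM in NB_cells and 19.4, 13.3, 20.9 and 24.1 CPM in Fibroblasts. Ccnb1 in NB_cells was lower in KO in both preparations, whereas the intervals of Cdc20 are apart in the sorted pair and overlap in the tumor pair. Cells under leukocyte names had less of either gene, leaving aside the leukocytes among sorted NB_cells. M1_macrophages had 16.9 to 24.3 CPM of Ccnb1 and 10.3 to 13.5 CPM of Cdc20, and Neutrophils had 1.47 CPM of Ccnb1 and 2.93 CPM of Cdc20 in WT sorted and 0 UMIs of both in KO sorted, where 0 allows up to 19.9 CPM.

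Pcna, the clamp, and Mcm5 are S phase members of the replication fork. Pcna (chromosome 2, 132249162 to 132253314, minus strand) was at 253 (242 to 264), 547 (523 to 571), 148 (145 to 152) and 247 (242 to 252) CPM in NB_cells, and at 196, 275, 198 and 198 CPM in M1_macrophages. In Fibroblasts it was lower, at 63.9, 97.0, 46.1 and 63.5 CPM. Sorted B_cells had 86.0 and 151 CPM of Pcna, CD4_T_cells 71.0 and 172, and Neutrophils 38.8 (29.1 to 50.8) and 141 (91.8 to 206). The level was thus not near 0 in any of these cells, and it was higher in KO sorted than in WT sorted in each of them. Mcm5, a helicase subunit (chromosome 8, 75109569 to 75128439, plus strand), was at 100.2, 197, 106 and 122 CPM in NB_cells, 30.3, 30.9, 25.3 and 26.4 CPM in Fibroblasts and 45.7, 40.5, 51.4 and 49.9 CPM in M1_macrophages. Sorted B_cells had 15.3 and 29.0 CPM of Mcm5 and Neutrophils 5.86 and 5.40.

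Tyms and Rrm2, which make thymidylate and deoxyribonucleotides, were closer to being absent from resting cells. Tyms (chromosome 5, 30058202 to 30073617, minus strand) was at 142 (134 to 150.4), 86.9 (77.5 to 97.1), 123 (120.3 to 126) and 126 (123 to 129.9) CPM in NB_cells. Fibroblasts had 37.0, 24.5, 32.9 and 35.1 CPM of Tyms, and sorted B_cells 2.88 and 0.894 CPM. Rrm2 (chromosome 12, 24708241 to 24714146, plus strand) was at 109 (102 to 117), 220.0 (205 to 236), 74.0 (71.7 to 76.5) and 79.0 (76.3 to 81.7) CPM in NB_cells and at 9.57, 8.52, 8.29 and 6.06 CPM in Fibroblasts. In the sorted pair these genes went opposite ways, Tyms lower and Rrm2 higher in KO NB_cells. Myeloid_DC, a dendritic cell name led by Cd209a, had 36.3 and 58.7 CPM of Rrm2 in the sorted libraries, above the 23.6 and 18.2 CPM of M1_macrophages.

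Tumor NB_cells and tumor Fibroblasts were compared gene by gene, a comparison chosen after the levels had been seen. The median mitosis member was 3.52 log2 units higher in NB_cells in WT and 3.48 in KO, the median S phase member 1.51 and 1.77, and the median of all genes -0.02 and -0.12. All 40 members were higher in NB_cells in both libraries. The largest gaps were those of Nusap1 (5.02 and 4.66), a spindle protein, Aurkb (4.66 and 5.33), the passenger complex kinase, Kif11 (4.63 and 4.51), the bipolar spindle motor, and Top2a (4.51 and 5.07). The smallest mitosis gaps were those of Cks1b (1.17 and 1.41), a kinase subunit, and Ccnb2 (1.22 and 1.32). Cks1b alone gave 24.8% and 24.6% of the mitosis sum of tumor Fibroblasts, at 136 and 128 CPM. Among S phase members Rrm2 (3.16 and 3.70) and the licensing factor Cdc6 (2.86 and 3.35) had the largest differences. The smallest S phase gap was that of the base-excision glycosylase Ung in WT (0.86, and 1.27 in KO) and of Slbp, which binds histone mRNA, in KO (1.18, and 1.00 in WT).

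Some cells named Fibroblasts were mitosis-positive. Neutrophils, the background type used below, had only 6 and 3 thinned cells in the tumor libraries, so no tumor background was available. The part of RNA from other cells, or of Cks1b alone, in the tumor shares was not tested. Of 2457 WT tumor Fibroblasts 19.2% (17.7 to 20.8) were mitosis-positive at equal depth, and of 2484 KO tumor Fibroblasts 15.8% (14.4 to 17.3). In the sorted libraries 26.8% (19.2 to 35.6) and 10.9% (4.51 to 21.2) were, on 123 and 64 cells. S-positive cells were 27.8% of tumor Fibroblasts in both genotypes. Because the name is so common, it held 21.6% and 18.9% of all mitosis-positive cells of the tumor libraries. The mitosis-positive Fibroblasts were more often S-positive than the rest, 51.9% against 22.0% in WT tumor and 50.3% against 23.6% in KO tumor, at median depths of 20452.5 and 17834 UMIs in WT and 23254 and 17253.5 in KO. In cells without thinning the mitosis shares were 79.4% and 69.9%. Among cells with at most 10% mitochondrial UMIs the tumor difference turned, KO standing 0.146 percentage points above WT.

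Stem_cells and Cancer_stem_cells also held many mitosis-positive cells. Stem_cells, with 218 cells in KO tumor and too few elsewhere, were 76.6% (70.4 to 82.1) mitosis-positive and 68.8% (62.2 to 74.9) S-positive, with summed levels of 3196 and 1540.1 CPM. Cancer_stem_cells were 25.5% (17.6 to 34.6), 28.9% (15.4 to 45.9), 51.6% (43.4 to 59.8) and 72.8% (66.8 to 78.3) mitosis-positive. The tumor pair of Cancer_stem_cells does not overlap and KO is higher. The name was led by haemoglobin and other erythroid genes, at 207475, 0, 28628 and 19752 CPM over 6 erythroid markers. The part of erythroid or macrophage RNA in the mitosis-positive shares was not tested.

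Under leukocyte names the sorted shares spanned a wide range. Myeloid_DC were at 18.3% (11.7 to 26.5) and 21.5% (15.6 to 28.4), and CD11c+_resident_DC at 21.0% in KO (13 of 62) and at 9 of 30 cells in WT. M1_macrophages were 16.2% (13.9 to 18.8) and 16.4% (12.2 to 21.2) mitosis-positive in the sorted libraries and 30% (19.6 to 42.1) and 21.4% (14.2 to 30.2) in the tumor libraries. M2_macrophages were well below them, at 4.06% (2.64 to 5.93), 4.52% (2.66 to 7.14), 11% (4.85 to 20.5) and 6.40% (2.80 to 12.2). The tumor cells named M2_macrophages differed in make-up between the genotypes, as given below. NK_cells were at 15.8% (10.7 to 22.1) in WT sorted and 7.91% (4.90 to 11.9) in KO sorted, Tregs at 3.66% (0.761 to 10.3) and 6.85% (4.39 to 10.1), and CD8+_effectors at 3.85% (1.26 to 8.75) and 7.48% (3.79 to 13). Each of these pairs overlaps within its counting error. In KO tumor, 31.4% (19.1 to 45.9) of 51 NK_cells and 28.8% (17.1 to 43.1) of 52 Tregs were mitosis-positive. Fibroblast marker RNA was at 99.2 CPM in those NK_cells and 46.7 CPM in those Tregs, against 3.57 to 6.14 CPM in the sorted libraries, and its part was not tested.

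Neutrophils, which do not divide once they have left the marrow, served as the background, a type that should lack mitosis RNA. They were 1.84% (0.678 to 3.96) mitosis-positive in WT sorted at a median of 2597.5 UMIs and 2.38% (0.0603 to 12.6) in KO sorted at 1936. B_cells at 1.31% and 0.880%, CD4_T_cells at 1.23% and 0% (0 of 174, up to 2.10) and CD8_T_cells at 2.10% and 0% (0 of 232, up to 1.58) had intervals that overlap it and are read as background. The intervals of WT sorted M2_macrophages, Tregs and CD8+_effectors overlap it too. With 42 KO Neutrophils the KO interval reaches 12.6%. It also covers the shares of KO sorted M2_macrophages, Tregs, CD8+_effectors, NK_cells and Fibroblasts (10.9%). At its upper end it overlaps the intervals of KO sorted M1_macrophages (12.2 to 21.2) and CD11c+_resident_DC (11.7 to 33.2). These KO shares were therefore not told apart from background by this measure. Median depths before thinning were 3118 and 2168 UMIs in sorted B_cells, 8714.5 and 5411 in NK_cells and 25401.5 and 10684.5 in M1_macrophages. Cks2, a small subunit of cyclin-dependent kinases, made up 78.1% and 75% of the mitosis sum of sorted Neutrophils, so their 241 and 411 CPM is mostly the level of 1 gene. The S phase background was not equal between the libraries. S-positive Neutrophils were 2.76% (1.27 to 5.18) in WT sorted and 16.7% (6.97 to 31.4, 7 of 42 cells) in KO sorted. S-positive B_cells were 15.8% and 29.4%, CD4_T_cells 18.9% and 31.6%, CD8_T_cells 18.1% and 31.5% and CD8+_effectors 26.2% and 43.5%, all higher in KO, as Neutrophils were. Whether these pairs differ beyond the shift in Neutrophils was not tested.

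**Figure D1:**
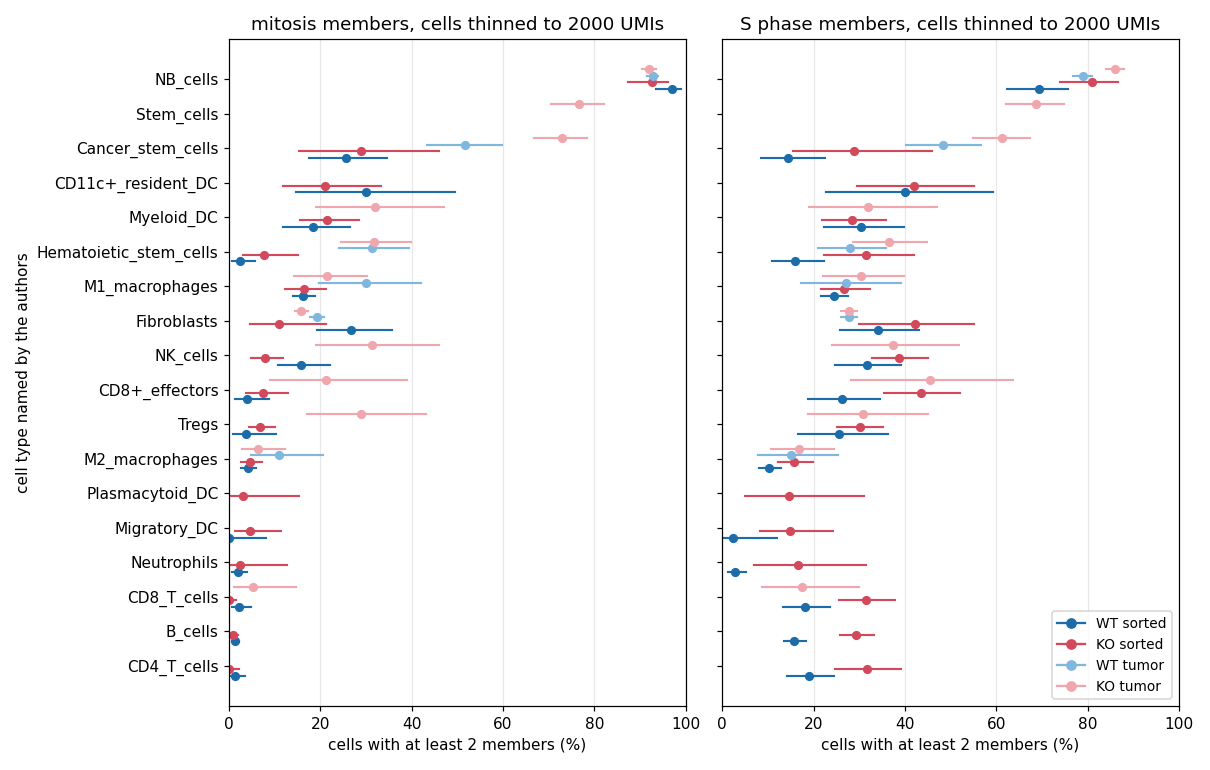
Share of cells (%) with at least 2 mitosis members and with at least 2 S phase members, after thinning to 2000 UMIs, for each cell type and library, with Clopper-Pearson 95% intervals. NB_cells lie at 92.0% to 96.9% for mitosis, tumor Fibroblasts at 15.8% and 19.2%, and sorted Neutrophils at 1.84% and 2.38%.

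The balance of the lists ordered the cell types. UMIs of S phase members over UMIs of mitosis members gave 0.319 (0.313 to 0.325), 0.562 (0.549 to 0.575), 0.408 (0.405 to 0.411) and 0.449 (0.445 to 0.452) in NB_cells. Cancer_stem_cells lay close by at 0.493 to 0.639, and KO tumor Stem_cells at 0.482. Fibroblasts (1.11, 1.99, 1.17 and 1.25) and M1_macrophages (1.52, 1.22, 1.07 and 1.20) lay near 1. B and CD4 T cells lay higher in the sorted libraries, CD4_T_cells at 6.21 (4.78 to 8.18) and 9.18 (6.56 to 13.2) and B_cells at 5.18 and 6.78. In the sorted libraries the ratio was higher in KO than in WT in each named cell type with both values except M1_macrophages, where it was lower, and Myeloid_DC, which stood level at 0.965 and 0.966. NK_cells had 1.54 (1.44 to 1.66) in WT and 3.87 (3.52 to 4.26) in KO. In WT sorted B_cells Slbp gave 21.8% and Pcna 21.4% of the S phase sum, and in WT sorted Neutrophils they gave 43.1% and 24.5%, so the ratio there rests on few genes.

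Some members were found in the same cells more often than others, in pairs chosen after the data had been looked at. Of WT tumor NB_cells with a Ccnb1 UMI 31.3% (25.9 to 37.1) also had Cdc20, against 14.5% (12.7 to 16.5) of the rest. In WT tumor Fibroblasts it was 14.6% (5.57 to 29.2) against 2.19% (1.65 to 2.86). Mki67 was found in 35.3% (32.2 to 38.4) of WT tumor NB_cells with Top2a and 25.5% (22.3 to 28.9) of those without. In KO tumor it was 43.4% against 28.1%. Pcna, the S phase clamp, was in 26.1% of WT tumor NB_cells with Top2a and 25.5% of those without, and in KO tumor in 35.9% (32.4 to 39.5) and 42.6% (38.4 to 46.8). Rrm2 was in 13.7% (11.3 to 16.4) and 19.8% (16.5 to 23.4) in KO tumor. Neither S phase gene was thus more frequent beside Top2a in KO tumor NB_cells. In WT tumor NB_cells Rrm2 was in 13.2% (11.1 to 15.5) and 11.5% (9.23 to 14.1), which overlaps. Other names did not all share this. With and without Top2a, Rrm2 was in 18.2% and 3.03% of WT sorted M1_macrophages and 41.2% and 3.23% of KO sorted Myeloid_DC. Pcna was in 9.86% and 10.3% of KO tumor Fibroblasts, close to level. All cells had 2000 UMIs in this count.

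KO was then set against WT within each cell type and preparation that had at least 50 cells in each library and at least 10 members of 1 list with 20 UMIs or more over both libraries. Ratios are log2 of CPM, relative to the median gene of the same cells, because that gene was itself 0.19 to 0.57 log2 units higher in KO by total UMIs. A member counts as higher or lower at 1.5-fold. Over 13 sorted cell types, S phase members were higher in KO in 48 of 190 measured pairs of member and cell type and lower in 36, and mitosis members were higher in 23 of 173 and lower in 70. By total UMIs these counts were 86 and 20 for S phase and 39 and 48 for mitosis, so the excess of lower over higher mitosis members was far smaller on that scale. Over 6 tumor cell types, S phase members were higher in 16 of 96 and lower in 13, and mitosis members higher in 10 of 123 and lower in 25, against 27 and 5, and 23 and 11, by total UMIs. Of all genes, 17.3% to 28.8% were higher and 17.3% to 28.8% lower in a sorted cell type, and 16.4% to 25.4% higher and 14.5% to 23% lower in a tumor cell type, so the S phase counts are near the shares of all genes. The comparisons of a preparation share its libraries and are not independent.

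In sorted NK_cells the mitosis members were lower in KO almost throughout. Of 19 measured 0 were higher and 15 lower, with a median of -1.66, while 24.6% of all genes were higher and 27.7% lower. Birc5 went from 54.9 to 10.2 CPM (-2.79, -3.55 to -2.11), Cdc20 from 18.7 to 4.59 (-2.39, -3.61 to -1.34) and Ccnb2 from 42.8 to 12.2 (-2.17, -2.88 to -1.52). Mki67 went from 52.8 to 34.2 CPM (-0.99, -1.44 to -0.56), but Top2a from 49.9 to 61.7 (-0.06, -0.44 to 0.32). The list summed to 560.3 CPM in WT and 280.0 in KO, a log2 ratio of -1.37 (-1.51 to -1.22), or -1.0 by total UMIs. S phase members did not share this, 2 being higher and 5 lower of 17. Pcna (124 to 244 CPM, 0.62) and Cdt1 (20.8 to 45.4 CPM, 0.76) were higher and Tyms (30.8 to 9.69 CPM, -2.03) and Dut (168 to 88.8 CPM, -1.28) lower. NK markers were at 6817 and 6559 CPM over 7 genes, and monocyte or macrophage markers at 1994 and 1417 CPM. Of the latter list C1qa was at 357 and 13.8 CPM. Lyz2, a gene outside that list, was at 1277 and 89.3 CPM, and neutrophil markers were at 341 and 4.59 CPM. The macrophage and neutrophil sums, C1qa and Lyz2 were thus lower in KO. The other markers of these lists were not read singly here, and the part of this RNA in the mitosis values was not tested. Mitosis-positive cells with NK markers were partly named NB_cells and stood outside this comparison, as given below.

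Sorted cells named Tregs differed the other way, but the name was led by the innate lymphoid genes Il5, Il13 and Areg beside Foxp3, the only regulatory T marker among its top 10. S phase members were higher in KO in 8 of 15 and lower in 1, and mitosis members higher in 5 of 7 and lower in 0, where 25.4% of all genes were higher and 25.3% lower. The helicase genes led: Mcm2 went from 11.7 to 65.7 CPM (2.09, 0.92 to 3.56), Mcm6 from 25.3 to 102 (1.6, 0.79 to 2.54) and Mcm7 from 11.7 to 41.1 (1.41, 0.21 to 2.91), on 6 to 13 WT UMIs. Cks2 (15.6 to 55.2 CPM, 1.42) and Top2a (36.9 to 81.6 CPM, 0.74) were also higher, and Dut was lower (81.6 to 66.3 CPM, -0.71). Regulatory T markers were at 1123 CPM in WT and 4829 CPM in KO, innate lymphoid 2 markers at 811 and 2523 CPM and B cell markers at 1683 and 455 CPM, and their part was not tested.

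Sorted NB_cells, whose make-up differed as described, had 10 S phase members higher in KO and 2 lower of 17, and 1 mitosis member higher and 12 lower of 23, beside 25.5% and 26.7% of all genes. Cdt1 (31.5 to 79.6 CPM, 1.06), Cdc6 (17.9 to 41.5 CPM, 0.94) and Uhrf1 (63.3 to 145 CPM, 0.93), which keeps DNA methylation through replication, were highest. Gins2 (56.6 to 33.7 CPM, -1.02) and Tyms (-0.98) went against them. Cdk1 (337 to 158 CPM, -1.36), Cdc20 (-1.23) and Birc5 (613 to 351 CPM, -1.07) were lowest, and Kif11 alone was higher (136 to 251 CPM, 0.61). In tumor NB_cells, with 1283 or more cells a library, few cycle genes differed. No mitosis member of 23 passed 1.5-fold either way and only Mcm3 of 17 S phase members did (249 to 149 CPM, -0.94, -0.99 to -0.90), where 16.4% of all genes were higher and 16.2% lower. The summed log2 ratios were 0.04 (0.02 to 0.05) for S phase and -0.10 (-0.11 to -0.09) for mitosis.

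Fibroblasts had lower mitosis members in KO in both preparations. In the sorted pair 17 of 22 were lower and 0 higher, beside 27.6% and 25.4% of all genes, with Cdk1 (41.4 to 10.7 CPM, -2.37), Bub1b (19.6 to 5.33 CPM, -2.29) and Cenpe (19.8 to 6.39 CPM, -2.04), the last pair acting at kinetochores. This pair rests on 164 and 78 cells. Monocyte or macrophage markers were at 624 and 61.3 CPM in them, with C1qa of that list at 155 and 11.2. Lyz2, a gene outside that list, was at 358 and 18.1 CPM. At least 3 graft markers were found in 66.7% and 43.8% of these cells. The part of this make-up was not tested. In the tumor pair 7 of 23 were lower and 0 higher, beside 16.6% and 19.3%, led by Cdk1 (25.0 to 12.7 CPM, -1.28), Bub1b (-1.0) and Top2a (23.5 to 15.9 CPM, -0.87). S phase members were lower in 4 of 17 sorted (Dut -1.19, Tyms -1.0 and Mcm3 -0.95 furthest) and 3 of 17 tumor comparisons (Mcm3 -1.30, Cdc6 -0.89 and Rrm2 -0.76), with 0 higher in either. By total UMIs the mitosis sum of tumor Fibroblasts was 547 and 520.1 CPM, close to level at -0.07.

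Macrophages were mixed. In sorted M1_macrophages 0 S phase members were higher and 7 lower of 17, and 4 mitosis members higher and 4 lower of 23, beside 21.4% and 23.6% of all genes. Gins2 (31.0 to 12.8 CPM, -1.58), Tyms (30 to 12.6 CPM, -1.55) and Dut (43.2 to 23.1 CPM, -1.21) were lowest. Plk1 (1.14), Kif11 (0.97) and the kinetochore protein gene Cenpf (0.95) were higher, and Ccnb2 (-0.80), Cdk1 (-0.67) and Cdc20 (-0.63) lower. Tumor M1_macrophages had 3 lower S phase members (Slbp -0.76 and Dut -0.74 among those with 50 UMIs) and 9 lower mitosis members, with 0 higher in either list, beside 19.3% higher and 14.5% lower genes. Cdk1 (-1.14), Ube2c (-0.88) and Ccnb2 (-0.65) were lowest. Sorted M2_macrophages had 2 higher and 2 lower of 17 S phase members (Uhrf1 0.97, Rrm1 0.59, Gins2 -1.47 and Tyms -0.96) and 2 higher and 12 lower of 22 mitosis members, beside 19.2% and 22.2% of genes. Cenpf (-2.37), Cenpe (-1.70) and Ccnb2 (-1.62) were lowest there and Top2a was higher (0.65). Tumor M2_macrophages had 3 higher and 4 lower of 13 S phase members and 1 higher and 5 lower of 11 mitosis members, beside 25.4% and 23%, with Pcna at 1.04, Mcm3 at -1.88, Dut at -0.63 and Cks1b at -1.39. The tumor cells of this name differed in make-up between the genotypes. Ptprc was at 46.8 CPM in WT and 362 in KO, Lyz2 at 1104 and 3094 and C1qa at 319 and 924. The collagen gene Col3a1 was at 591 and 144 CPM, in 65.4% and 17.9% of cells before thinning. The part of this make-up in the ratios was not tested. In sorted Myeloid_DC few members differed, 1 higher and 3 lower of 17 and 1 higher and 0 lower of 23, beside 17.3% of genes each way. These were Uhrf1 (0.62), Tyms (-1.40), Gins2 (-1.19), Dut (-0.94) and Nusap1 (0.59).

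Sorted B and T cells had too few mitosis UMIs to compare beyond 1 to 5 members. B_cells had 2 S phase members higher (Cdt1 1.08 and Rrm1 0.63) and 3 lower of 12 (Dut -1.19, Ung -0.73 and Mcm4 -0.62), and of 5 mitosis members 1 higher (Top2a 0.66) and 3 lower (Kif20b -0.71 and Cks2 -0.68 among them), beside 24.7% and 27.4% of genes. CD4_T_cells had 4 higher and 4 lower of 12 S phase members, with Pcna at 0.71, Dut at -1.63, Mcm4 at -0.97 and Mcm6 at -0.84, and 1 lower mitosis member of 1, beside 25.4% and 28.8%. CD8+_effectors had 2 higher and 2 lower of 12, with Pcna at 0.99 and Dut at -0.77, and 1 lower of 3, beside 23.9% and 25.5%. CD8_T_cells had 3 higher (Cdt1 1.42, Mcm2 1.07 and Pcna 0.59) and 2 lower of 12 (Mcm4 -0.85 and Dut -0.61), and 1 lower of 2, Cks2 at -1.81, beside 23.7% and 26.6%. These S phase counts run to 4 of 12 either way, near the shares of all genes.

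Cells named Cancer_stem_cells had more higher than lower members in both preparations. In the sorted pair 10 S phase members were higher and 1 lower of 13 (Slbp 1.29, Mcm7 1.18 and Pcna 0.67) and 8 mitosis members higher and 1 lower of 16 (Top2a 1.27, Cdk1 -0.65), beside 28.8% and 28.3% of genes. In the tumor pair 5 were higher and 1 lower of 17 (Pcna 0.82, Rrm1 0.81, Mcm2 0.71 and Mcm3 -0.73) and 6 higher and 1 lower of 23 (Bub1 1.46, Mki67 1.17, Kif11 0.76 and Cdk1 -0.80), beside 23.7% and 15.7%. Erythroid RNA differed between the genotypes as given above, and its part was not tested. Cells named Hematoietic_stem_cells were led by the mast cell genes Mcpt4, Cma1, Tpsb2 and Cpa3 in the sorted preparation, but 94.9% of WT and 84.8% of KO sorted cells of this name had at least 3 B cell markers, and Cd79a was at 3002 and 1297 CPM. In the tumor preparation they were led by haemoglobin and mitochondrial genes, but Hbb-bs was at 5654 CPM in WT and 25.6 CPM in KO. There 62.7% (WT) and 27% (KO) had at least 3 graft markers, and Col3a1 was at 2401 and 399.9 CPM. The part of this make-up in the tumor ratios was not tested. Hematoietic_stem_cells had 4 higher and 0 lower of 12 S phase and 1 higher and 3 lower of 7 mitosis members sorted, beside 24.2% and 26.5%. In the tumor pair they had 8 higher and 1 lower of 15 (Rrm1 0.89, Pcna 0.86, Mcm6 0.71 and Mcm3 -1.01) and 3 higher and 3 lower of 20 (Mki67 0.85, Birc5 0.62, Cdk1 -0.71 and Cenpe -0.65), beside 19.9% and 20.9%.

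Read by member, several genes went one way through most cell types of a preparation. Dut, the dUTPase, was lower in KO in 9 of 13 sorted cell types and higher in 0, with a median of -0.77. In each of those cell types 17.3% to 28.8% of all genes were lower and 17.3% to 28.8% higher. Tyms was lower in 8 of 9 (-1.0), Gins2 in 6 of 6 (-1.33), Cdk1 in 6 of 7 (-1.01) and Cks2 in 8 of 13, with 1 higher (-0.68). Pcna (0.59), Mcm2 (0.76) and Cdt1 (0.60) were each higher in 7 of 13 and lower in 0, and Uhrf1 in 5 of 8 (0.78). The same genes did not all repeat in the tumor libraries. There Tyms (-0.19) and Gins2 (0.10) passed in 0 cell types and Dut in 2 of 6 (-0.01), whereas Cdk1 was again lower, in 5 of 6 (-0.97), and Pcna higher in 3 of 6 (0.68). Mcm3 was lower in 5 of 6 tumor cell types (-0.97), but in the sorted ones higher in 3 and lower in 2 of 13 (-0.04). Cell types of different lineages thus differed the same way within a preparation, and library and genotype cannot be told apart in them.

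**Figure D2:**
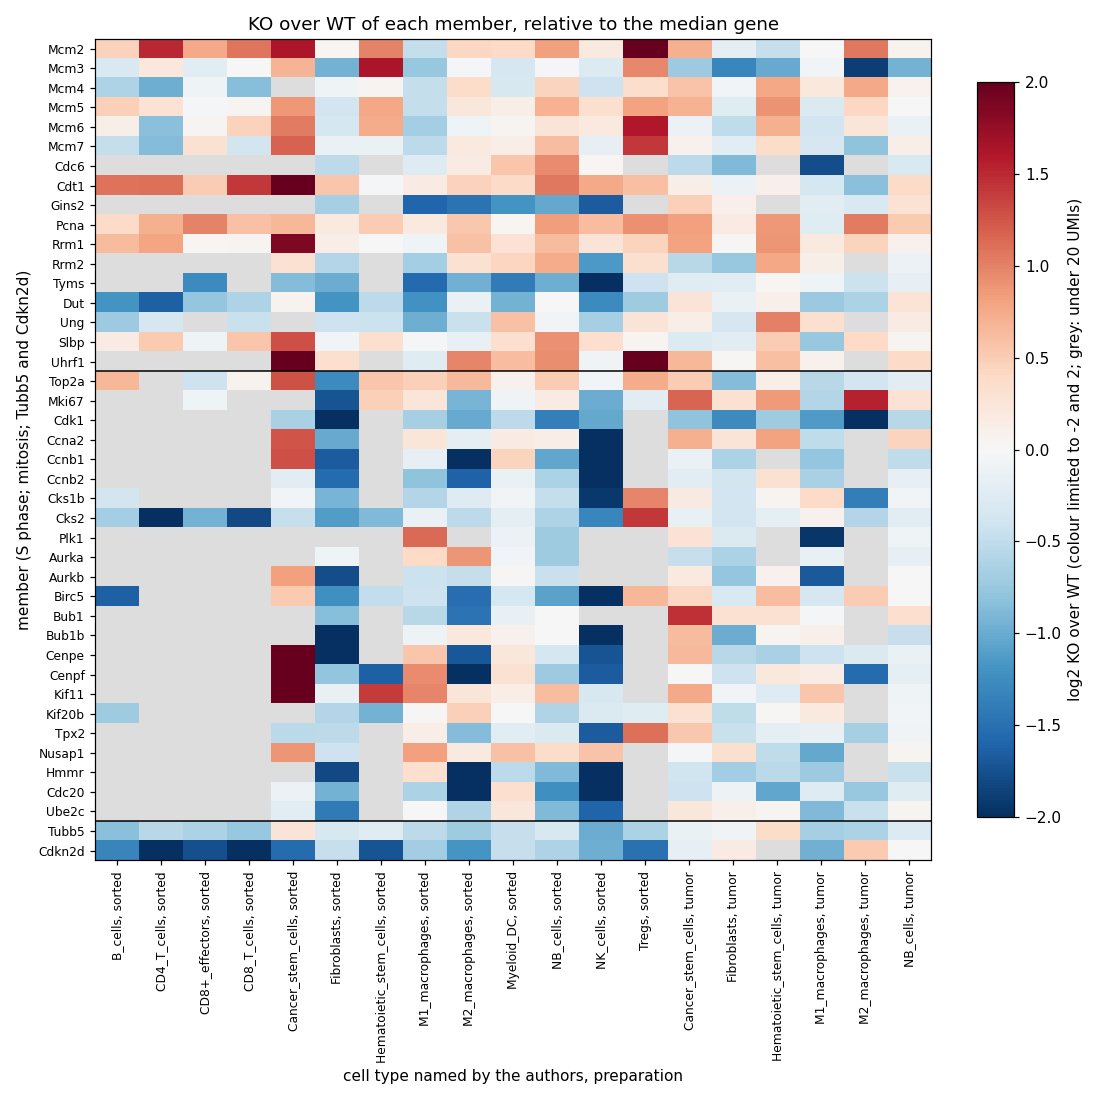
Log2 KO over WT of each member (rows) in each cell type and preparation (columns), relative to the median gene, shown where the member had at least 20 UMIs over both libraries. Where they were measured in sorted cell types, Dut was lower in 9 of 13, Tyms in 8 of 9, Gins2 in 6 of 6 and Cdk1 in 6 of 7, and in tumor cell types Mcm3 and Cdk1 in 5 of 6.

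Because NB_cells held leukocytes, sorted cells were also grouped by marker genes at 2000 UMIs, a grouping chosen after the data had been seen. Cells with NK markers were 27.6% (20.7 to 35.3; 43 of 156) mitosis-positive in WT sorted and 23.2% (18.2 to 28.8; 61 of 263) in KO sorted. Without those named NB_cells the shares were 16.5% and 10.1%. The gap of NK_cells between genotypes was thus 7.89 percentage points by name, 6.40 by marker without NB_cells and 4.37 by marker with them, and the intervals overlap each time. Cells with T cell markers were 4.44% (3.04 to 6.25; 698 cells) and 8.49% (6.60 to 10.7; 754 cells) mitosis-positive, which does not overlap and is higher in KO. Without NB_cells they were at 2.63% (1.56 to 4.12) and 4.56% (3.16 to 6.35), which overlaps. Their S-positive shares were 21.8% (18.8 to 25.0) and 35.9% (32.5 to 39.5). Cells with regulatory T markers were 13.7% (5.70 to 26.3, 51 cells) and 16% (12.1 to 20.5, 319 cells) mitosis-positive. That group did not require T cell markers, so not all of it need be regulatory T cells. Cells with macrophage markers were 18.5% (16.6 to 20.5; 1565 cells) and 14.7% (12.2 to 17.5; 720 cells), and 13.4% and 12.0% without NB_cells. Of mitosis-positive cells with T or NK markers, 46.4% in WT sorted and 57.7% in KO sorted were named NB_cells. With those included, the pooled group of cells with T or NK markers had a mitosis sum of 1027 CPM in WT sorted and 1554 CPM in KO sorted. Cells with T cell markers outnumbered those with NK markers in both libraries, so this sum does not give the order of NK cells. By NK markers alone the mitosis-positive share stayed lower in KO, with intervals that overlap. Cells with graft markers were mitosis-positive in 47.2% (45.3 to 49.0) of WT tumor and 26.7% (24.5 to 28.9) of KO tumor, but cells with no lineage by marker were in 49.4% (46.9 to 52.0) and 54.8% (53.0 to 56.7), and marker levels differed too. In tumor NB_cells the 7 fibroblast markers summed to 2643 CPM in WT and 1042 in KO, whereas Hand2 was at 154 and 245 CPM, Gata3 at 3.60 and 8.32 and Mycn at 3.56 and 4.91. The part of these differences in the shares was not tested.

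**Figure D3:**
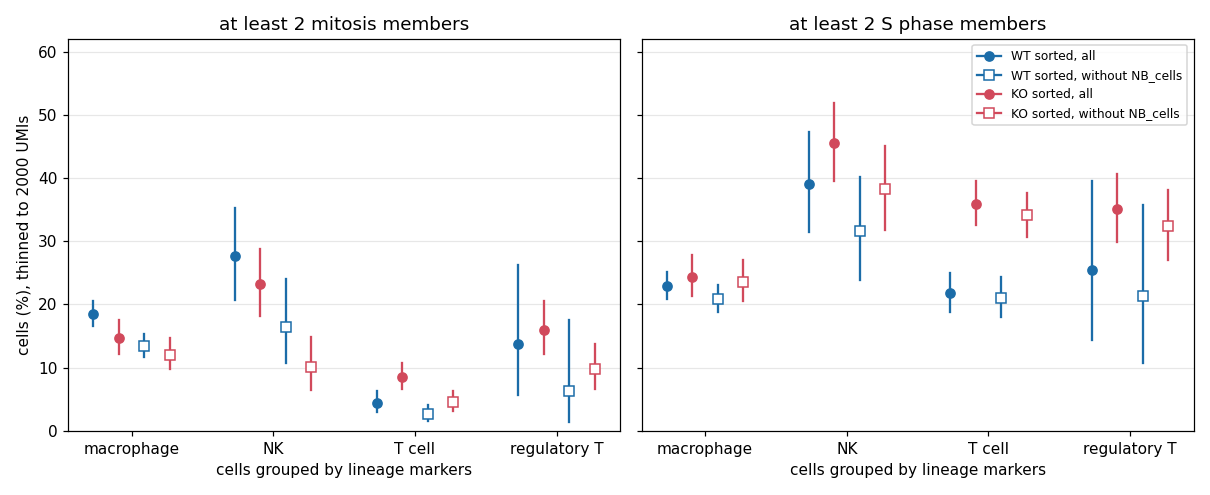
Share of sorted cells (%) with at least 2 mitosis members and at least 2 S phase members, grouped by lineage markers after thinning to 2000 UMIs, with and without cells the authors named NB_cells, and Clopper-Pearson 95% intervals. NK-marker cells are at 27.6% and 23.2% for mitosis with those cells and 16.5% and 10.1% without.

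Genes that gate the cycle before S phase were counted from other lists. Of 8 G1 cyclins and kinases, tumor NB_cells had 1 higher and 2 lower in KO, near the 16.4% and 16.2% of all genes, and the list summed to 893 and 609 CPM (-0.76, -0.78 to -0.74). The lower genes were Ccnd1 (232 to 118 CPM, -1.18), cyclin D1, and its kinase Cdk4 (504 to 330.0 CPM, -0.82). In tumor Fibroblasts 1 was higher and 3 lower, beside 19.3% and 16.6%, with Ccnd1 at -0.98 and Cdk4 at -0.87. Relative to the median gene, Cdk4 was below WT in KO in all 13 sorted cell types, from -1.54 in CD8+_effectors to -0.14 in Tregs. It did not pass 1.5-fold in Tregs or Hematoietic_stem_cells. In KO Tregs the median gene was itself 0.41 higher by total UMIs, so Cdk4 was not lower there on that scale. Of all genes, 17.3% to 28.8% were lower at 1.5-fold in a sorted cell type. Ccnd2, cyclin D2, was higher in KO in sorted NK_cells (138 to 556 CPM, 1.65), CD8+_effectors (207 to 688 CPM, 1.29) and NB_cells (22.5 to 168 CPM, 2.63). It was also higher in sorted Fibroblasts (1.92), M2_macrophages (1.82), B_cells (1.34), Myeloid_DC (1.08), Tregs (0.99), M1_macrophages (0.94), CD8_T_cells (0.86), CD4_T_cells (0.79) and Hematoietic_stem_cells (0.74). In sorted Cancer_stem_cells it had under 50 UMIs. This difference was thus not particular to a lineage, and library and genotype cannot be told apart in it.

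In tumor NB_cells and tumor Fibroblasts some inhibitors of cyclin-dependent kinases differed more between the genotypes than any member did. In NB_cells 1 inhibitor was higher and 4 lower of 10, beside 16.4% and 16.2% of all genes. Cdkn2a, which encodes p16 and p19Arf, went from 58.7 to 259 CPM (1.94, 1.88 to 2.0), Cdkn2c, p18, from 89.0 to 22.9 CPM (-2.16, -2.26 to -2.06) and Cdkn1c, p57, from 22.4 to 0.288 CPM (-6.49, -7.45 to -5.68). Tumor Fibroblasts differed the same way in these 3 genes, Cdkn2a at 1.62, Cdkn2c at -3.63 and Cdkn1c at -5.75. Sorted NK_cells had 2 inhibitors higher and 1 lower of 8, near the 24.6% and 27.7% of all genes. Their inhibitor sum was higher in KO (1330.2 to 3308 CPM, 0.95, 0.89 to 1.01). Most of it was Btg1 (739 to 2309 CPM, 1.28), an antiproliferative gene of resting lymphocytes. Cdkn1b, p27, was also higher (61.6 to 169 CPM, 1.09). Both genes passed 1.5-fold upward in sorted B_cells too (Btg1 0.72, Cdkn1b 0.90). So did Cdkn1b in sorted CD4_T_cells (1.31), Fibroblasts (1.03), CD8_T_cells (0.94) and CD8+_effectors (0.89). Btg1 also passed in sorted NB_cells (1.17), M1_macrophages (0.87) and Hematoietic_stem_cells (0.70), but was lower in sorted Cancer_stem_cells (-0.64). These differences were thus not particular to NK_cells, and library and genotype cannot be told apart in them.

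Lists of genes that act beside the members are to be read against the shares of all genes given above for the same cells. In sorted NK_cells 0 of 25 other replication genes were higher and 12 lower, and 1 of 22 other mitosis genes was higher and 9 lower, with Cdca3 (-2.93) and Cdca8 (-2.86) lowest, where 24.6% of all genes were higher and 27.7% lower. In sorted Fibroblasts 20 of 31 other mitosis genes were lower and 1 higher, beside 27.6% and 25.4% of all genes. In sorted M1_macrophages 15 of 27 other replication genes were lower and 0 higher, Prim1 (-1.42) and Gmnn (-1.39) furthest, beside 23.6% and 21.4%. In sorted Tregs 12 of 19 were higher and 5 lower, Hells (2.88) and Dnmt1 (1.70) furthest, beside 25.4% and 25.3%. Of 16 E2F, Rb and Myc genes, sorted NB_cells had 10 higher and 0 lower, with Rbl2 (1.79) and Rbl1 (1.70) furthest, beside 25.5% and 26.7%. In tumor NB_cells 1 of 27 other replication genes was higher and 2 lower, and 0 of 32 other mitosis genes higher and 1 lower, beside 16.4% and 16.2%.

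Tubb5 and Cdkn2d stood apart. Tubb5, a beta tubulin, was at 1907, 1845, 1453 and 1386 CPM in NB_cells and 471, 500.3, 405 and 475 CPM in Fibroblasts, and reached 322 and 245 CPM in sorted B_cells, whose mitosis-positive share was at the level of Neutrophils. Cdkn2d, p19 of the INK4 family, had its highest levels in T cells of WT sorted. It was at 194 (169 to 223) and 53.8 (36.8 to 76) CPM in sorted CD4_T_cells, 138 and 37.0 CPM in CD8_T_cells, 79.2 and 97.3 CPM in Neutrophils and 25.5 and 29.4 CPM in tumor NB_cells. It was lower in KO in 11 of 13 sorted cell types and higher in 0 (median -1.32), and lower in 1 of 5 tumor cell types.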

How the data were processed

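Per the labels, 10x 3' v3 libraries of CD45+ sorted or total tumor cells were sequenced, and the build mm10 is listed in the submitters' processing notes beside the tools Cell Ranger (6.0.1) and Seurat (4.0.5), with no role for either. How reads that fit several genes were counted is not given in the sources used here. The authors deposited, per cell, natural log values of 1 plus 10000 times a gene's share of UMIs, although the table is named as counts, with each cell's total UMI count and a cell type name. Counts were recovered from them: all 60957742 nonzero values came out whole within 0.01, and all 20376 cell sums equalled the deposited totals. The labels hold 16 samples, but cells carry 4 library names, so each group was 1 library and no p-value was computed.

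Counts were summed per named cell type (19 names) and library. Levels carry exact Poisson intervals at 95%, ratios the interval of a conditional binomial and shares that of Clopper and Pearson, and a count of 0 has a floor of 3 counts. Shares used cells thinned to 2000 UMIs with seed 1. Ratios needed 50 cells a library, 20 UMIs of a gene and 10 measured members of a list. Doublets were left in except in an alternative. All 42 members are described by list and role, 8 are given in every library, and in each comparison the 3 members of a list furthest each way (2 for other lists) with 50 UMIs are named, with any against their list's direction. The members and lists were chosen with earlier results of these data known. The co-detection pairs, the grouping by markers and the comparison of NB_cells with Fibroblasts were chosen after the data had been looked at. Cells with 3 markers of 1 lineage, or 2 regulatory T markers, formed the marker groups. Alternatives varied scaling, depth, filters, doublets, cell weight and the fold. Python 3.11.15, NumPy 2.4.6, pandas 2.3.3, SciPy 1.17.1 and matplotlib 3.10.9 were used, and the ratio step was tested on simulated data.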

Additional observations from a re-analysis of the deposited data

How the results depend on the processing

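No paired analysis was possible because each group was 1 library. Scaling by total UMIs gave, of sorted S phase pairs of member and cell type, 86 higher and 20 lower (48 and 36 in the report), of tumor S phase pairs 27 and 5 (16 and 13), of sorted mitosis pairs 39 higher (23), and of tumor mitosis pairs 23 and 11 (10 and 25). A 2-fold limit gave 18 and 16, 3 and 4, 10 and 44, and 3 and 10 in the same order. With cells thinned, sorted S phase pairs higher were 30, tumor S phase pairs 9 higher and 8 lower, and sorted mitosis pairs 9 and 18, where fewer pairs could be measured. At 50 UMIs, tumor S phase pairs higher were 10, sorted mitosis pairs higher 12 and tumor mitosis pairs lower 14. At 1 UMI, sorted mitosis pairs were 54 and 126 and tumor mitosis pairs higher 18. The stricter cell filter gave 8 higher tumor S phase pairs and 42 lower sorted mitosis pairs. Removing doublets, or giving cells equal weight, left all 8 counts within 1.5 times. The summed log2 ratios were less stable, moving beyond their counting intervals in 11 of 38 with doublets removed, 17 of 38 with equal weight, 18 of 36 with cells thinned and 36 of 38 by total UMIs. The share of mitosis-positive tumor Fibroblasts in KO less that in WT turned to 0.146 points at no more than 10% mitochondrial UMIs, and that of S-positive tumor NB_cells to -0.0779 points without thinning, and the cause was not tested. Depth left 1 to 5 mitosis members measured in sorted B and T cells.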
